A study of Mus musculus with 8 samples.

Results

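The genes described here mark 2 rare kinds of non-neuronal cell in the olfactory epithelium, and they were taken by symbol from a table of polysome-associated RNA. All 9 symbols were found among the 21765 in the table. Trpm5, Pou2f3, Chat, Avil and Gfi1b stand for the tuft-like microvillous cell, Ascl3, Foxi1 and Cftr for the ionocyte-like cell, and Trpc6 was listed with them without a stated cell type. No measured value was used to choose them, but they were chosen with earlier results of these data known.

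Microvillous cells lie among the supporting cells at the surface of the epithelium and carry short microvilli in place of the cilia of olfactory neurons. The tuft-like kind depends on the transcription factor Pou2f3 and uses the taste signalling channel Trpm5; it is known as a chemosensory cell that can make acetylcholine and lipid mediators. Ionocytes are known for the forkhead factor Foxi1, for Ascl3, for proton pumps and for the chloride channel Cftr, and they adjust the ions of surface fluid. Messenger RNAs that carry more ribosomes sediment further in a sucrose gradient, so a transcript's place in the gradient reads out both the length of its coding sequence and how densely it is loaded.

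RNA came from the main olfactory epithelium of Mus musculus, treated at dissection with 100 µg/mL cycloheximide, which holds ribosomes on their messages. Of about 42 gradient fractions, 27 to 34 were pooled as early (lighter) polysomes and 35 to 42 as late (heavier) polysomes. Wild-type (WT) mice were Mex3a flox/flox or Mex3a flox/+ with no Cre named, and conditional knockout (cKO) mice were Mex3a flox/flox with a Cre driver that is not reported here, so floxed Mex3a is common to both; Mex3a encodes an RNA-binding protein. Age and the number of mice per lysate are not given in the sources used here. There were 4 groups, an early and a late one for each genotype, with 2 libraries in every group, and the early and late library of a genotype and number share a lysate name. Nothing says that the 2 lysates of a genotype came from separate animals, so p-values measure the spread between these lysates, which may be technical.

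The libraries held between 7776792 and 12771079 reads, as inferred from the steps of the deposited values, with the fewest in cKO late replicate 2. Mex3a checked the labels: its scaled level in early polysomes was 107.8 ± 14.08 TPM for WT and 17.8 ± 4.69 for cKO, and in late polysomes 88.6 ± 0.806 for WT and 12.0 ± 1.56 for cKO (SD, n = 2 each). One library titled WT early, replicate 2, has the genotype tag of the cKO mice; its deposited Mex3a value of 115.6 TPM was the highest of all, and it was kept as WT. Some estimates of Cftr, Ascl3 and Foxi1 are also given without it. TPM is transcripts per 1000000, a level per transcript length, and was scaled between libraries here.

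Because the comparison is between positions on a polysome gradient, the bases around the start codon are shown for the members that lay furthest from, or close to, other messages of their length. Each line runs from 12 bases before the start codon to 3 bases after it in the chosen GENCODE transcript on GRCm38 (the build called mm10), 5′ to 3′, with the start codon in capitals.
Ascl3: tgaaaggaaacgATGgac
Foxi1: gccagctccagcATGagc
Gfi1b: gcacgcagaaaaATGcca
Trpm5: tggaaagccaccATGcaa
Pou2f3: gcctggggcaggATGgtg
A purine (A or G) stood 3 bases before the start codon in 9 of 9 members, and in 84.1% of the 14656 tested genes with an annotated coding transcript. G followed the start codon in Ascl3 and Pou2f3 only, 2 of 9 members, against 52.2% of those genes. The sequence upstream of the start codon was 54 to 378 nt long in the members, with a median of 185 nt over those genes, and held at least 1 upstream ATG in 4 of 9 members (Avil, Cftr, Trpc6 and Trpm5) against 54.0%.

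The levels of the 9 genes spanned a wide range, and the ionocyte-like factors led. Over the 8 libraries Ascl3 averaged 50.0 scaled TPM (39.0 to 63.1) and Foxi1 26.7 (14.1 to 45.0). They were followed by Pou2f3 at 6.83 (4.41 to 9.55), Cftr at 6.32 (3.13 to 8.55), Trpm5 at 2.26 (1.25 to 3.98), Avil at 1.69 (1.12 to 2.51), Gfi1b at 1.36 (0.682 to 2.12), Trpc6 at 0.547 (0.245 to 0.970) and Chat at 0.0665 (0 to 0.125). Ascl3 exceeded Foxi1 in 8 of 8 libraries although their ranges over libraries overlapped. The ranges of Foxi1 and Pou2f3 did not overlap, nor did those of Trpc6 and Chat. Pou2f3 and Cftr could not be ordered, since Pou2f3 was the higher in 4 of 8 libraries, and the ranges of Cftr and Trpm5, of Trpm5 and Avil, of Avil and Gfi1b, and of Gfi1b and Trpc6 overlapped. Summed over Ascl3, Foxi1 and Cftr, the level was 56.3 to 115 TPM per library, and over the 5 tuft-like genes 10.2 to 14 TPM. Fewer cells of a type and less RNA per cell cannot be told apart in such tissue RNA.

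**Figure D1:**
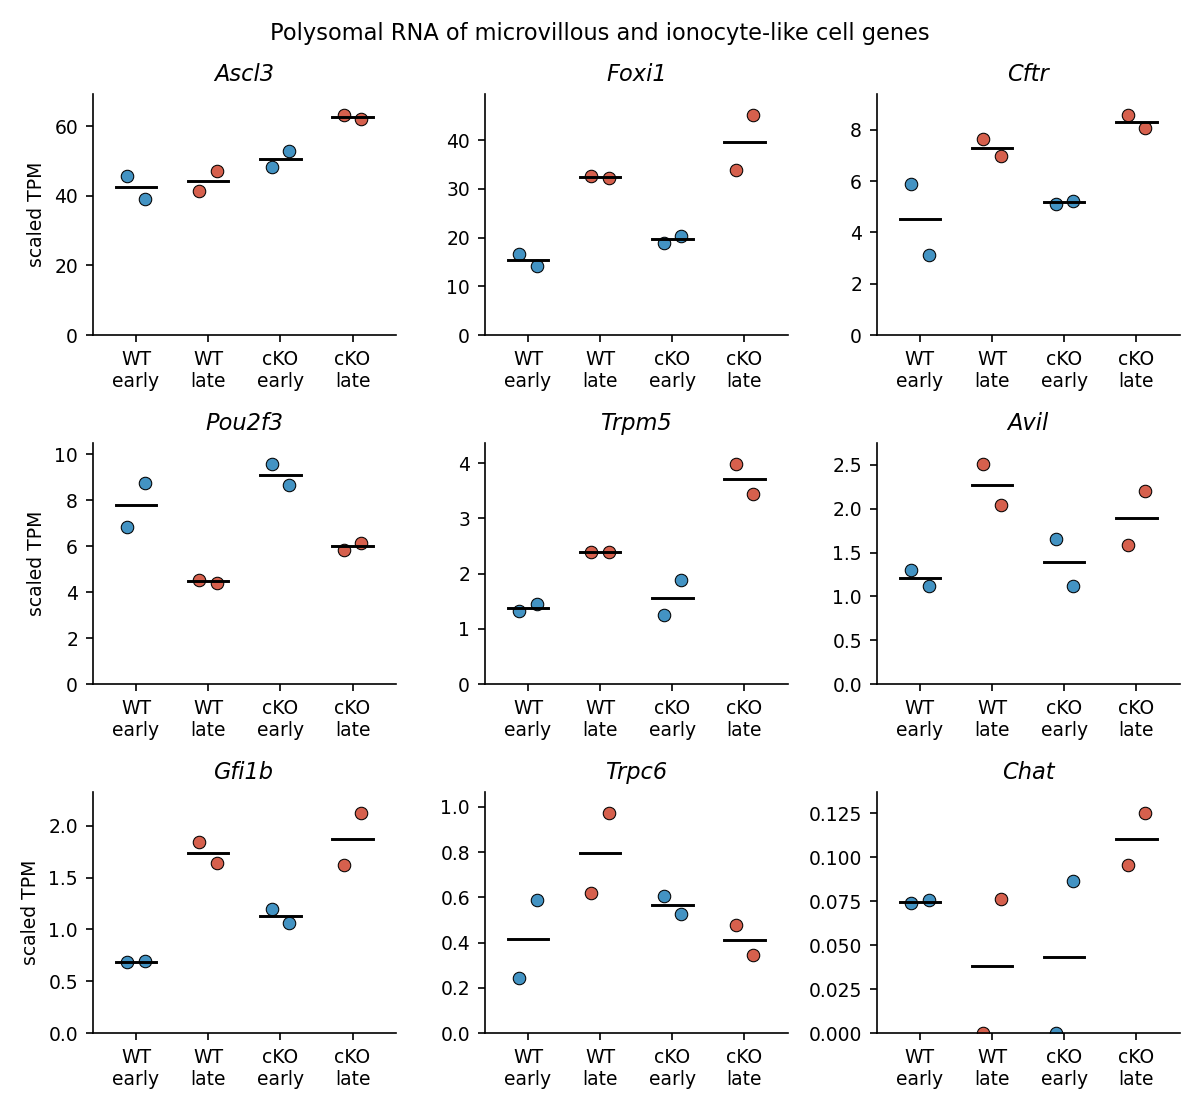
Scaled TPM (y axis, linear from 0, a separate scale for each gene) of the 9 genes in the 2 libraries of each group (x axis); points are libraries (blue early, red late) and bars are means. Foxi1, Cftr, Trpm5 and Gfi1b lie higher in all late than in all early libraries, Pou2f3 lies lower, and Chat rests on 0 or 1 read in each library.

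Late and early polysomes were compared to ask where on the gradient these messages lie. Of the 7 members with a mean of at least 1 TPM, which were tested, 4 were higher in late polysomes (Foxi1, Trpm5, Cftr and Gfi1b), 1 was lower (Pou2f3), and Avil and Ascl3 did not pass an adjusted p of 0.05 by limma. The median change of the 7 was 0.56 log2, against -0.011 over all tested genes. Among all 16097 tested genes 68.9% passed in this comparison, 34.3% as higher and 34.6% as lower, so passing the test is common in this tissue and the share of members that passed is close to it. In 5 of the 7 members no late library overlapped an early one, as in 62.5% of all tested genes.

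Foxi1, the forkhead factor that specifies ionocytes (chromosome 11, 34204338 to 34208089, minus strand), had the largest change of the members on the log2(TPM + 1) scale, while by voom Foxi1 and Trpm5 were both at 1.03 log2. In early polysomes its scaled TPM was 16.6 and 14.1 for WT and 18.9 and 20.4 for cKO; in late polysomes it was 32.7 and 32.3 for WT and 34.0 and 45.0 for cKO. Late libraries were thus higher in 4 of 4 lysates, by 1.80 to 2.29 times. The log2 change was 1.00 (SE 0.10, adjusted p = 6.65e-05 by limma), on 157 to 356 reads per library.

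Cftr, the chloride and bicarbonate channel of ionocytes (chromosome 6, 18170687 to 18322768, plus strand), also lay toward heavy polysomes. Early libraries held 5.88 and 3.13 TPM for WT and 5.10 and 5.23 for cKO, and late libraries 7.62 and 6.98 for WT and 8.55 and 8.07 for cKO. All late values were above all early values, and the WT early pair differed more than any other pair of Cftr values. The rise was 0.62 log2 (SE 0.17, adjusted p = 0.00973 by limma), and it was 0.43 (adjusted p = 0.0175) without WT early replicate 2. An annotated antisense gene, Gm15592, overlaps the locus, and so does a processed pseudogene on the same strand, Gm15595. It is not stated whether reads of these stranded libraries were counted by strand.

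Ascl3, a basic helix-loop-helix factor (chromosome 7, 109727465 to 109731726, minus strand), was the most abundant member and changed little with the fraction. In early polysomes it stood at 45.8 and 39.0 TPM for WT and 48.4 and 52.9 for cKO, and in late polysomes at 41.5 and 47.2 for WT and 63.1 and 62.2 for cKO. Late was higher in 3 of 4 lysates and early and late libraries overlapped. The change of 0.18 log2 (SE 0.081) did not pass (adjusted p = 0.0736 by limma); it was 0.30 with an adjusted p of 0.012 in TPM as deposited, where the median of all tested genes was 0.087, and 0.24 with 0.0408 without WT early replicate 1, and its adjusted p ranged from 0.012 to 0.23 over the alternatives. The ratio of Ascl3 to Foxi1 therefore differed by fraction: it was 2.56 to 2.77 in the 4 early libraries and 1.27 to 1.86 in the 4 late ones.

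Trpm5, the calcium-activated cation channel of tuft and taste cells (chromosome 7, 143069153 to 143094642, minus strand), also lay toward the heavy fractions. Early values were 1.32 and 1.45 TPM for WT and 1.25 and 1.88 for cKO, and late values were 2.40 and 2.39 for WT and 3.98 and 3.44 for cKO. No early library reached a late one. The log2 change was 0.70 (SE 0.16, adjusted p = 0.00444 by limma), and the ratio of the mean late to the mean early level was 2.06, against 1.61 for Cftr; log2(TPM + 1) understates changes of low genes, and voom gave 1.03 for Trpm5 and 0.72 for Cftr. Between 25 and 65 reads per library lay behind these values, and the protein-coding gene Tssc4 overlaps on the other strand.

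Pou2f3, the POU factor that tuft cells require (chromosome 9, 43123939 to 43210369, minus strand), went the other way. It measured 6.82 and 8.74 TPM for WT and 9.55 and 8.65 for cKO in early polysomes, against 4.52 and 4.41 for WT and 5.85 and 6.12 for cKO in late ones. Every late library was below every early one. The log2 change was -0.60 (SE 0.12, adjusted p = 0.00177 by limma), on 44 to 110 reads per library. The ratio of Pou2f3 to Trpm5, 2 genes used to mark the same cell, was 4.60 to 7.65 in early and 1.47 to 1.89 in late libraries.

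Gfi1b, a zinc finger repressor made in tuft cells and also in megakaryocytes and red cell precursors (chromosome 2, 28609450 to 28621982, minus strand), was low but separated by fraction. Early libraries held 0.682 and 0.698 TPM for WT and 1.20 and 1.06 for cKO; late libraries held 1.84 and 1.64 for WT and 1.62 and 2.12 for cKO. Its log2 change was 0.56 (SE 0.17, adjusted p = 0.0185 by limma), on only 6 to 15 reads per library, and 0.97 by voom on the inferred reads. The call was lost without WT late replicate 1 (adjusted p = 0.0528) and without cKO early replicate 2 (adjusted p = 0.051). The summed level of 7 markers of megakaryocytes, platelets and red cells was 97.8 to 133 TPM in early and 68.7 to 99.9 TPM in late libraries. Single markers differed: of the 5 tested, 3 fell in late polysomes and 1 rose. Among the 3 most abundant, Pf4 fell (-1.51 log2), Alas2 did not pass (0.095) and Itga2b rose (0.64), as Gfi1b did. The part of those cells in the Gfi1b values was not tested.

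Avil, which encodes the actin-bundling protein advillin of microvilli (chromosome 10, 127000709 to 127020994, plus strand), was at 1.30 and 1.12 TPM for WT and 1.66 and 1.12 for cKO in early polysomes, and at 2.51 and 2.04 for WT and 1.59 and 2.20 for cKO in late ones. Late was higher in 3 of 4 lysates, the exception being cKO lysate 1. Its change of 0.42 log2 (SE 0.18) did not pass (adjusted p = 0.0628 by limma), and it passed in 6 of 16 alternatives, with an adjusted p of 0.0159 to 0.173 over the 16. The gene overlaps Tsfm, a protein-coding gene on the other strand.

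**Figure D2:**
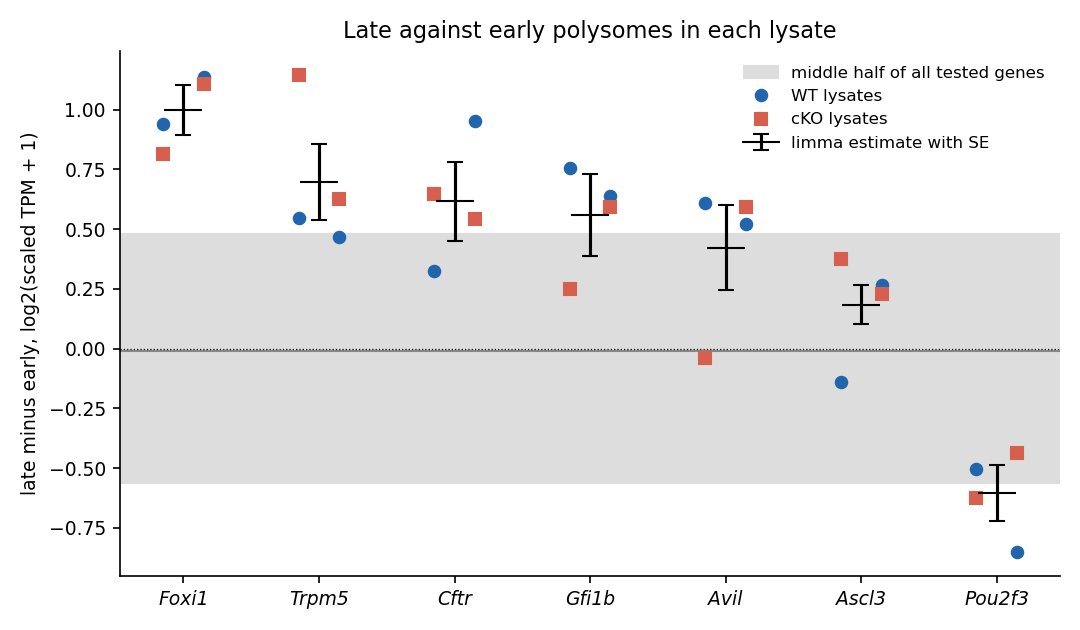
Late minus early difference in log2(scaled TPM + 1) (y axis) for the 7 tested members (x axis), with each WT lysate (circles), each cKO lysate (squares), the limma estimate with its SE (black) and the middle 50% of all 16097 tested genes (grey band). Foxi1 has the highest estimate at 1.00, Pou2f3 the lowest at -0.60, and all 4 lysates of Pou2f3 lie below 0.

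The change between fractions was then set beside the length of the coding sequence, because longer messages can hold more ribosomes. Across the 14656 tested genes with an annotated coding transcript, late-minus-early change and coding length correlated at Spearman's rho = 0.636; genes are not independent replicates, and the annotation may differ from that of the authors. The members' coding sequences ran from 525 nt (Ascl3, 174 amino acids) to 4431 nt (Cftr, 1476 amino acids). In 10 bins of equal size by coding length, the long members lay near their bins on the log2(TPM + 1) scale. That scale understates changes of low genes. By voom, for which no bins were made, Trpm5 was at 1.03, Cftr at 0.72 and Avil at 0.65 log2. Cftr at 0.62 and Trpm5 (3477 nt) at 0.70 log2 shared a bin with a median of 0.50, and Avil (2460 nt) at 0.42 lay in one with a median of 0.45.

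The short members lay further from genes of their length. Ascl3 fell in the bin of the shortest coding sequences, whose median change was -1.12 log2. Its value of 0.18 was 1.30 above that median and higher than 98.9% of the 1466 genes in the bin. At 525 nt it lay near the long end of the bin, which ran from 78 to 549 nt with a median of 408 nt. The next bin had a median change of -0.63 log2. Foxi1 (1119 nt) was 1.01 log2 above its bin median of -0.015, higher than 94.8% of the bin. Gfi1b (993 nt) was 0.72 above a median of -0.16, higher than 87.6%. Pou2f3 (1296 nt) shared the bin of Foxi1 and was 0.59 log2 below its median, with 11.5% of the bin lower still. Positions of Ascl3 and Foxi1 relative to length are descriptions of single genes, with no test.

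**Figure D3:**
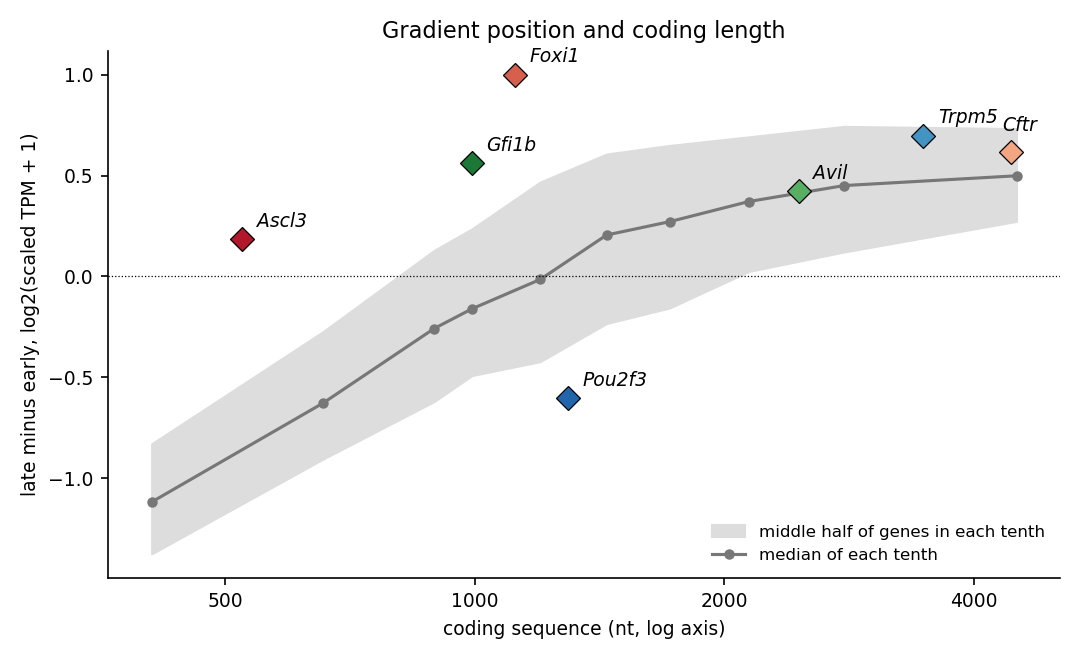
Late minus early difference in log2(scaled TPM + 1) (y axis) against coding length in nt (x axis, log scale); grey points and band are the median and middle 50% of genes in 10 equal bins by coding length, and diamonds are the 7 tested members. Ascl3, Gfi1b and Foxi1 lie above the band, Pou2f3 below it, and Avil, Trpm5 and Cftr inside it.

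Chat and Trpc6 were too low to be tested with the rest. Chat, the enzyme that makes acetylcholine (chromosome 14, 32408203 to 32465989, minus strand), had 1 read in 6 libraries and 0 in 2, or 6 reads in all. In the libraries without a read, WT late replicate 1 and cKO early replicate 1, a count of 0 allows up to 0.252 and 0.224 TPM as deposited (3 reads), a limit that covers counting error only. No difference in Chat was detectable at this depth. Trpc6, a cation channel gated by lipids (chromosome 9, 8544142 to 8680741, plus strand), had 5 to 23 reads per library. For WT it measured 0.245 and 0.586 TPM early and 0.618 and 0.970 late, and for cKO 0.605 and 0.526 early and 0.477 and 0.347 late. Without a filter on low values its late-minus-early change was 0.097 log2 (SE 0.12, adjusted p = 0.547 by limma).

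Wild-type and knockout libraries were compared to ask whether loss of Mex3a changes these messages on polysomes. No member passed in either fraction: 0 of 7 in early polysomes, where 0.0435% of all tested genes passed, and 0 of 7 in late polysomes, where 0.0124% did. At an unadjusted p under 0.05 were 0 members in early and 1 (Ascl3) in late polysomes, against 6.65% and 9.36% of all tested genes, and the voom test on inferred reads also called 0 in both. The estimates were mostly above 0. In early polysomes 7 of 7 members had a higher mean in cKO, with a median of 0.21 log2, while 51.3% of all tested genes were above 0 with a median of 0.0055. Without WT early replicate 2, the library with the conflicting tag, the Cftr estimate was -0.16 and those of the other members stayed above 0. In late polysomes 6 of 7 were above 0, with a median of 0.26, against 49.8% of all tested genes and a median of -0.00066. Both comparisons use different libraries of the same 4 lysates, so they are not independent. Nor are the members independent of each other, since they share these libraries and several mark the same cell. Counts of members are therefore not replicates of a genotype difference.

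Ascl3 came nearest to the threshold. Its cKO late libraries, at 63.1 and 62.2 TPM, were above its WT late libraries at 41.5 and 47.2, and its cKO early libraries, at 48.4 and 52.9, were above its WT early ones at 45.8 and 39.0. The change was 0.49 log2 (SE 0.12, adjusted p = 0.337 by limma) in the heavy fractions and 0.25 (SE 0.12, adjusted p = 0.761) in the light ones, where it was 0.14 without WT early replicate 2. Foxi1 was higher in cKO by 0.34 log2 (SE 0.15, adjusted p = 0.748 by limma) early and by 0.26 (SE 0.15, adjusted p = 0.621) late. Its genotypes did not overlap in either fraction. The early estimate was 0.23 without WT early replicate 2. The late estimate turned on the cKO libraries: it was 0.062 without cKO late replicate 2 and 0.46 without cKO late replicate 1. Cftr was 0.21 and 0.17 log2 higher (SE 0.23 each), and its late estimate was 0.11 without WT late replicate 2; its early estimate turned to -0.16 without WT early replicate 2, the library with the conflicting tag.

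Among the tuft-like genes the late libraries of Trpm5 and Pou2f3 separated by genotype, with cKO higher by 0.47 log2 (SE 0.23, adjusted p = 0.564) and 0.35 (SE 0.17, adjusted p = 0.549) by limma. Their early libraries overlapped. For Gfi1b it was the early libraries that did not overlap (0.33 log2, SE 0.24), and for Avil both fractions overlapped, with 0.11 and -0.18 log2 (SE 0.25 each). In all, cKO libraries lay wholly above WT for 3 of 7 members in early and 5 of 7 in late polysomes; 19.6% and 20.5% of all tested genes did so. No member lay wholly below, as 17.6% and 20.1% of all tested genes did.

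**Figure D4:**
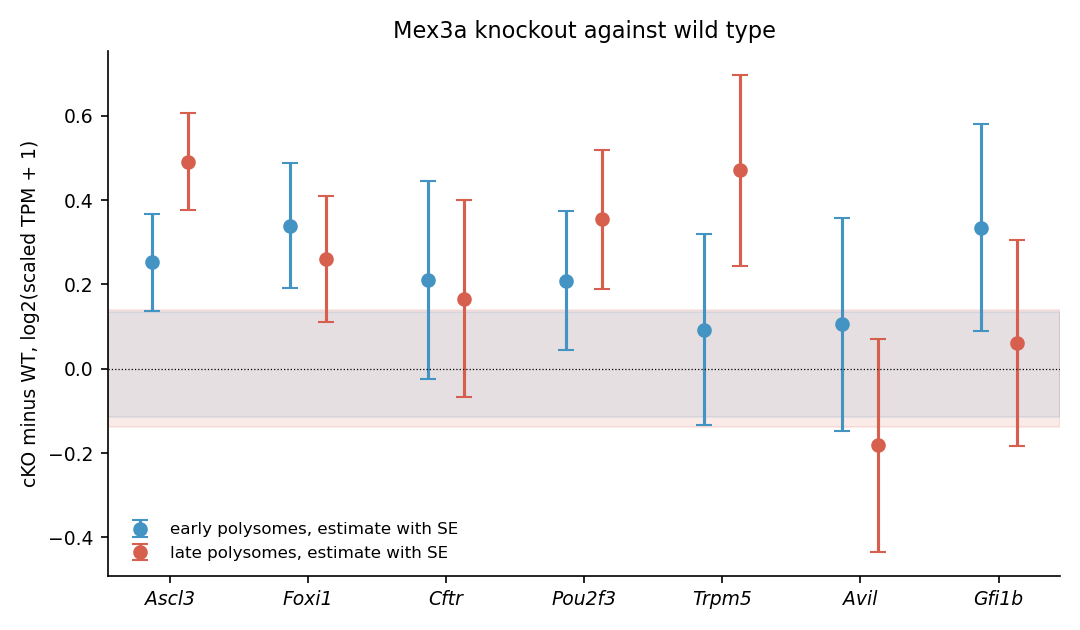
cKO minus WT difference in log2(scaled TPM + 1) (y axis) for the 7 tested members (x axis) in early (blue) and late (red) polysomes, as limma estimates with SE; shaded bands hold the middle 50% of all tested genes. The estimates run from -0.18 (Avil, late) to 0.49 (Ascl3, late) and none passed the adjusted threshold.

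Markers of other cells were summed in the same libraries. The summed level of 8 nasal gland markers was 18600 to 22200 TPM in WT late and 24300 to 27500 in cKO late libraries, and that of 8 sustentacular (supporting) cell markers 12800 to 13200 and 14500 to 14700. In early libraries both sums overlapped between genotypes, at 7370 to 12300 and 8610 to 12400 TPM for glands and 7930 to 8720 and 7630 to 9220 for sustentacular cells. Megakaryocyte and red cell markers summed to 97.8 to 104 TPM in WT and 115 to 133 in cKO early libraries, and to 68.7 to 77.8 and 98.1 to 99.9 in late ones, so these sums were apart in both fractions. Gfi1b was apart in the early libraries only, and its late libraries overlapped between genotypes. Ciliated cell markers were also apart in both as a sum, at 490 to 528 for WT and 550 to 555 for cKO early and 378 to 381 and 388 to 428 late. As single genes, 4 of the 6 were above 0 in cKO minus WT early and 3 of the 6 late. Immune and basal cell sums overlapped early and were apart late, at 126 to 134 for WT and 140 to 156 for cKO and at 278 and 283 to 302, while neuron sums overlapped in both fractions. Being apart is common with 2 libraries per group. Of single tested genes, 19.6% early and 20.5% late lay wholly higher in cKO, and 17.6% and 20.1% wholly lower. Median cKO-minus-WT changes in early and late polysomes were -0.023 and 0.31 log2 for gland markers, -0.10 and 0.12 for sustentacular markers, 0.13 and -0.0016 for 6 respiratory ciliated cell markers, and -0.070 and -0.064 for 7 mature neuron markers. They were 0.083 and 0.058 for 7 basal and progenitor markers, 0.38 and 0.45 for 5 tested megakaryocyte and red cell markers, and 0.085 and 0.14 for 9 immune markers. No gene of these lists passed in either genotype comparison, none was at 0 in every library, and the part of these cells in the members' values was not tested.

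Whether loss of Mex3a shifts the members along the gradient was tested as the interaction of genotype and fraction. Here 0 of 7 members passed by limma, where 0.00621% of all tested genes did, 0 had an unadjusted p under 0.05 against 2.85%, and voom called 0. The estimate was above 0 in 3 of 7 members and in 48.9% of all tested genes. Estimates ran from -0.29 (Avil, SE 0.36) to 0.38 log2 (Trpm5, SE 0.32), with a median of -0.044 against -0.0056 over all tested genes.

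Other genes of the 2 cell types were taken from lists made by pathway and cell type. Their counts in late against early polysomes stand beside 34.3% of all tested genes that passed as higher, 34.6% as lower and 68.9% in either direction, and nothing is read from a list's count alone. Of 28 further genes of taste-type signalling and tuft cells, 16 were tested; between late and early polysomes 6 rose and 3 fell, with a median of 0.26 log2. The 3 most abundant are also made by other cells of the tissue, and these values do not show that the rest come from tuft cells only. Gng13, a G protein gamma subunit shared with olfactory neurons, averaged 1160 TPM and fell by 1.73 log2 (SE 0.14, adjusted p = 2.71e-05 by limma); Krt18, a keratin of surface epithelia, averaged 464 TPM and rose by 1.22; and Dclk1, a microtubule-associated kinase, averaged 37.9 TPM and rose by 0.57. Named after their values were seen, Itpr3 (0.53 log2), the calcium release channel downstream of taste receptors, Ptgs1 (0.56) and Alox5 (1.04), enzymes of prostaglandin and leukotriene synthesis, and Vav1 (0.58) also rose, and Alox5ap (-0.85), the short partner of Alox5, and Rgs13 (-1.57) fell. The taste G protein Gnat3, at 0.510 TPM on 1 to 4 reads per library, and the cytokine Il25, at 0.330 TPM on 0 to 3 reads, were too low to test. No gene of the list passed between genotypes, and its median changes were 0.070 in early and 0.24 log2 in late polysomes.

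Genes around acetylcholine were mostly at low levels, like Chat. Of 19, 8 were tested, and Chrnb2, a nicotinic receptor subunit at 12.3 TPM, was the only one to change between late and early polysomes (0.33 log2, SE 0.10, adjusted p = 0.0167 by limma); the median of the 8 was 0.21. Chrna7 at 10.6 TPM (0.16 log2) and the acetylcholine-degrading enzyme Ache at 6.57 TPM (0.37) did not pass. The vesicular transporter Slc18a3, which lies within the Chat locus on the same strand, was listed at 0 in every library, and the choline transporter Slc5a7 had at most 3 reads in any library. None passed between genotypes, with medians of 0.11 in early and 0.083 log2 in late polysomes.

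Of 25 further genes of ionocytes, proton pumps and chloride transport, 22 were tested; 11 rose in late polysomes and 2 fell, with a median of 0.37 log2. Slc12a2, a chloride importer used by many epithelia, averaged 225 TPM and rose by 0.61 log2 (SE 0.12, adjusted p = 0.00217 by limma). Coch, which encodes cochlin, averaged 158 TPM and rose by 1.29, while Slc9a3r1, a scaffold protein that binds Cftr, averaged 320 TPM and did not pass (0.19, adjusted p = 0.0654). Named after their values were seen, the proton pump subunits Atp6v1b1 (1.08), Atp6v0a4 (0.73) and Atp6v1c2 (0.54), with Moxd1 (1.01) and Stap1 (0.94), rose, and the pump subunit Atp6v1g3 (-1.65) and the Foxi1 paralog Foxi2 (-0.50) fell. None of the list passed between genotypes, and its median changes were 0.069 in early and 0.12 log2 in late polysomes.

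Paralogs of the members did not share 1 direction along the gradient. Of 25 paralogs 14 were tested; 5 rose and 2 fell in late polysomes, with a median of 0.039 log2. Trpm7, at 58.4 TPM, fell by 0.22 log2 and Abcc4, at 75.7 TPM, rose by 0.58. Named after their values were seen, Pou2f1, at 24.2 TPM, rose by 0.24 where Pou2f3 fell, and Trpm4, at 9.23 TPM, rose by 0.74. None passed between genotypes, with medians of -0.028 in early and 0.037 log2 in late polysomes.

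For 3 members the genes with the most similar profile were listed, by the root mean square difference of log2(scaled TPM + 1), centred on each gene's mean, over the 8 libraries and 16076 genes. Closest to Trpm5 were Dmrt2 (0.086), Prr5l (0.117) and Dmrt3 (0.118), where the median difference from Trpm5 over genes was 0.457. Dmrt2 belongs to the list of ionocyte genes used here, not to that of tuft cells. Ascl3 was closest to Slc39a8 (0.0739), Tnfsf10 (0.0819) and Fyb (0.0879), with a median of 0.388, and Cftr to Tfap2c (0.0882), Icosl (0.0936) and Adamts4 (0.102), with a median of 0.437. The profiles share libraries, depth and the difference between fractions, and the 8 libraries come from 4 lysates. The distances hold on this scale only, which understates changes of low genes. Trpm5 averaged 2.26 TPM and changed by 1.03 log2 by voom, while Dmrt3 averaged 47.6 TPM.

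The marker lists of other cells are given for late against early polysomes beside the 68.9% of all tested genes that passed there. Median changes were 1.15 log2 for sustentacular markers (7 of 8 rose, 1 fell), 0.98 for gland markers (7 of 8 rose, 1 fell), 0.48 for mature neuron markers (5 of 7 rose, 2 fell), 0.43 for basal and progenitor markers (5 of 7 rose), -0.24 for ciliated cell markers (2 of 6 rose, 3 fell), -0.85 for megakaryocyte and red cell markers (1 of 5 rose, 3 fell) and 0.16 for immune markers (2 of 9 rose).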

How the data were processed

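The authors deposited 1 table of TPM with 1 column per library, each summing to 1000000; FastQC, cutadapt, STAR and DESeq2 and the build mm10 are named, without roles, in the submitters' processing notes, and counting, strand setting and annotation are not given in the sources used here. The series' design text describes sorted cells of other transgenic mice, whereas the labels of these samples describe tissue lysates on gradients; the samples' labels were followed. TPM was scaled by median ratios (factors 0.94 to 1.07). The test was that of limma 3.58.1 (R 4.3.3) on log2(scaled TPM + 1), over genes with a mean of at least 1 TPM, the 4 groups fitted together with a mean-variance trend, two-sided, adjusted by Benjamini-Hochberg. Reads were inferred from the steps of TPM for all 19783 genes above 0 in 2 or more libraries (tolerance 0.001). The limma fits and the inference of reads were checked on simulated data.

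Early and late libraries were paired by lysate name in an alternative; over all genes, deviations from group means correlated at 0.0863 for the WT and 0.0502 for the cKO lysates. The members and gene lists were chosen with earlier results of these data known. Named genes were the members, Mex3a, the 3 most abundant tested genes of each list, genes of a list past the threshold between genotypes, and the 3 nearest profiles. Of the markers of other cells, only those of the megakaryocyte and red cell list are named, and the rest are given as sums, counts and medians. Other named genes are marked as named after their values were seen. A gene that the rule names is not reported here. Alternatives were pseudocounts of 0.1 and 0.5, no filter, a mean of at least 5 TPM, TPM as deposited, quantile normalization, no trend, each library left out in turn, blocks by replicate, fits of the 4 compared libraries alone, and voom on inferred reads. Figures were drawn with matplotlib 3.10.9.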

Additional observations from a re-analysis of the deposited data

Results flagged for a closer look

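Trpc6 moved in opposite directions in the 2 genotypes. Its late library was higher than its early one in both WT lysates (0.38 and 0.31 on the log2(scaled TPM + 1) scale) and lower in both cKO lysates (-0.12 and -0.18), and the mean difference between genotypes was -0.495. Trpc6 lay under the filter of a mean of 1 TPM; fitted without that filter, the interaction was -0.50 (SE 0.25, adjusted p = 1.0 by limma). It rested on 5 to 23 reads per library, where counting error alone is wide. Exact 95% Poisson intervals of the early and late reads overlapped in each lysate. In WT lysate 1 they were 2.2 to 13.1 early and 7.65 to 23.5 late. In WT lysate 2 they were 7.65 to 23.5 and 14.6 to 34.5. For cKO lysate 1 the intervals were 7.65 to 23.5 early and 4.12 to 17.1 late. For cKO lysate 2 they were 5.49 to 19.7 and 1.62 to 11.7.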

How the results depend on the processing

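The member count in late against early polysomes (5 of 7 tested) was 7 in TPM as deposited, where 11132 of all tested genes passed. It was 6 with quantile normalization, without a trend and with voom, and 6 of 9 tested without a filter. With a mean of at least 5 TPM it was 3 of 4 tested. Counts of members between genotypes and in the interaction were 0 in every alternative run. With the lysate as replicate block there were 5 members and 11004 genes in late against early and 1 gene in the interaction; a replicate block on the number gave 7 and 2 genes between genotypes, and no call of a member changed. Between genotypes, same-numbered libraries deviated together across genes (r = 0.332 early, 0.143 late, 2 pairs each). The labels name no batch, but the library names are numbered serially within each replicate number across both genotypes. What that numbering stands for is not given. Over all genes, the early genotype count of 7 became 11 without a filter, 4 with at least 5 TPM, 0 in the 4 libraries compared (1043 at an unadjusted p under 0.05), 12 with voom, and 0 to 9 when each library was left out (0 without WT early replicate 1). The late count of 2 fell to 1 at pseudocount 0.1, with at least 5 TPM and in the 4 libraries compared, 4 without a filter, 5 without a trend, 15 with voom, and 0 to 13 with a library left out. The interaction count of 1 became 6 without a filter, 2 without a trend, 0 with at least 5 TPM (324 unadjusted) and with voom (396 unadjusted), and 1 to 7 with a library left out. The cause of these moves was not tested. Signs that turned did so only for estimates that had not passed and only when 1 library was left out: between genotypes in early polysomes Trpm5 (-0.086 to 0.27), Avil (-0.058 to 0.27) and Cftr (-0.16 to 0.58), in late polysomes Gfi1b (-0.065 to 0.19), and in the interaction Pou2f3 (-0.013 to 0.30), Foxi1 (-0.28 to 0.12) and Cftr (-0.41 to 0.32). Depth limits Chat, Trpc6 and Gfi1b most, at up to 1, 23 and 15 reads per library.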
